A study of Mus musculus with 6 samples.

Results

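The 9 genes described here encode enzymes of serine synthesis and of folate-borne one-carbon metabolism: Phgdh, Psat1, Psph, Shmt1, Shmt2, Mthfd1, Mthfd2, Mthfd1l and Tyms. They are 9 of the 16832 genes in the deposited table and were found in it by symbol. The list was chosen from enzymes of this pathway with the difference between the GoF and control libraries of the same table already known, so every GoF against control value of a member is a description. All 9 had a row and all 9 passed the filter on low values, a mean normalized count of at least 10.

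RNA was sequenced from the microdissected region of the second heart field, a pool of progenitor cells that lengthens the heart tube at its inflow and outflow ends, in mouse embryos at embryonic day 9.5. The control group carried Mef2c-Cre alone, a Cre recombinase driven by regulatory sequence of Mef2c, which labels second heart field cells and their descendants. The gain-of-function (GoF) group carried Hoxb1GOF together with Mef2c-Cre, so Mef2c-Cre was common to both groups. Hoxb1 is a homeobox transcription factor that normally marks the posterior part of the second heart field. The series lists 6 samples. The values cover control replicates 2 and 3 and GoF replicates 1, 2 and 3, while replicate 1 of the controls was not analysed here. A dissected region can also hold cells in which this Cre is not active. The labels do not say whether replicates were separate embryos or pools, so each p-value reflects the spread among these libraries alone, which may be technical.

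Cells make serine from the glycolytic intermediate phosphoglycerate in a pathway with Phgdh, phosphoglycerate dehydrogenase, at its start, Psat1, phosphoserine aminotransferase, in the middle and Psph, phosphoserine phosphatase, at its end. Serine hydroxymethyltransferases then split serine into glycine and a carbon unit that folate carries, Shmt1 in the cytosol and Shmt2 in mitochondria. In mitochondria Mthfd2 and Mthfd1l oxidise that unit and release it as formate. In the cytosol Mthfd1 loads formate onto folate again for purine synthesis, and Tyms, thymidylate synthase, spends such a unit on making thymidylate for DNA. Folate supply and mitochondrial formate are known to matter for closure of the neural tube and for growth of the mouse embryo.

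Of the 9 genes, 4 had a higher normalized count in the GoF libraries at a Benjamini-Hochberg adjusted p under 0.05 (limma, over 16794 genes): Shmt2, Phgdh, Mthfd2 and Shmt1. Of all genes tested, 12.2% were called higher. Psat1 was called lower, and 10.9% of all genes were called lower. Psph, Mthfd1, Mthfd1l and Tyms did not pass. The median log2 fold change was 0.39 over the 9 genes and -0.01 over all genes tested. Because the genes were chosen with this contrast known, nothing is read from these counts.

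Promoter sequences are shown for the genes at both ends of the range of change, Shmt2 and Psat1, and for Phgdh and Mthfd2, which with Psat1 were the members whose promoter held a match to the Hox-Pbx type motif TGATNNAT. Hox proteins and their Pbx partners bind sites of this kind together. Each window runs from 250 bases before to 50 after the start site in RefSeq on build GRCm38.p6, 5′ to 3′ on the gene's own strand, which is the minus strand for all 4. Capitals mark matches, on either strand, to TGATNNAT, to the CCAAT box (spelled CCAAT, or reversed as ATTGG on the opposite strand) and to the E2F-type motif TTTNNCGC. The windows are chr10:127522395-127522694 for Shmt2, chr19:15925010-15925309 for Psat1 (the first of 2 windows RefSeq gives that gene), chr3:98339920-98340219 for Phgdh and chr6:83317555-83317854 for Mthfd2.
Shmt2: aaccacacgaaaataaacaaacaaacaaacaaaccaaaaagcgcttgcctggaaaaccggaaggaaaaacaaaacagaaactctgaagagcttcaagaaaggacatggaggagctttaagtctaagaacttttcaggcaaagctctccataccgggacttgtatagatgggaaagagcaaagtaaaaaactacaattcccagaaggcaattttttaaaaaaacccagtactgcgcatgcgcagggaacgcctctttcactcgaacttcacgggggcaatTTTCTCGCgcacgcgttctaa
Psat1: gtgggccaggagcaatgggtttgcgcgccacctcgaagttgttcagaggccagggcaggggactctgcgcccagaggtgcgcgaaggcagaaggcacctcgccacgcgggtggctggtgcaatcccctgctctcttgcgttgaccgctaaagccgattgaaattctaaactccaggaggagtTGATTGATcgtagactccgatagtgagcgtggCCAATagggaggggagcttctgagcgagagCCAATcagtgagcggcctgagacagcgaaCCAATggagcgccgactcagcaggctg
Phgdh: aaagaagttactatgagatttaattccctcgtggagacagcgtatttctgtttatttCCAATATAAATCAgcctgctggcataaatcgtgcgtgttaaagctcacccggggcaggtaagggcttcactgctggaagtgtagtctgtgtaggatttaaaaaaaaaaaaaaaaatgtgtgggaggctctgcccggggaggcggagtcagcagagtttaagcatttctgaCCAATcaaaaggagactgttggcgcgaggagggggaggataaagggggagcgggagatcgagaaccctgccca
Mthfd2: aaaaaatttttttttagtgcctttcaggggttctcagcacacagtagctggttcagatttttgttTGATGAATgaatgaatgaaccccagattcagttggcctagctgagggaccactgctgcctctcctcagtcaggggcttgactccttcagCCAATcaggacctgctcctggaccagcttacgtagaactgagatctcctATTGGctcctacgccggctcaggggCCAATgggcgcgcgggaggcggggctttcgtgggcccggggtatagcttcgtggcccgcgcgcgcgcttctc

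The Hox-Pbx type matches began at base -68 from the start site in Psat1 (TGATTGAT), at -185 in Mthfd2 (TGATGAAT) and at -188 in Phgdh, where the motif lay on the other strand (ATAAATCA, directly after a CCAAT box). Such a match was in the window of 3 of the 9 genes and in 8.85% of all 32851 windows of that length. These genes did not share a direction, since Psat1 had lower GoF counts and Phgdh and Mthfd2 higher. The CCAAT box was in the windows of 6 genes (Phgdh, Psat1, Psph, Shmt1, Mthfd1 and Mthfd2) and in 37.4% of all windows. The E2F-type motif, named for factors of the cell cycle, was in those of Psph, Shmt2 and Tyms and in 5.17% of all. The E-box CACGTG was found in Tyms alone, against 7.15% of all windows. None of the 9 genes' windows held TGATGNAA, the core of the site bound by Atf4, a factor that switches on serine synthesis genes when amino acids are short, and 3.97% of all windows did. These are letter matches in 1 short window a gene (both windows for Psat1), on both strands, and no binding was measured.

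The deposited values gave back 34260116 to 44384354 reads per library. Hoxb1 itself stood at normalized counts of 752 and 610 in control replicates 2 and 3 and 1021, 1003 and 1041 in GoF replicates 1, 2 and 3 (log2 fold change 0.59, SE 0.12, limma adjusted p = 0.0147). With a trend on transcript GC content removed, its log2 fold change was 0.26 and was not called (limma adjusted p = 0.251). The 12 second heart field markers measured, Isl1 and Mef2c among them, were present in every library, and Fgf8 was not analysed here. They summed to 16140 and 18120 in the controls and 18129 to 18500 in GoF, where Osr1 (log2 fold change 2.09), Tbx5 (0.58) and Hoxb1 were called higher and Fgf10 lower (-0.92). The share of reads on mitochondrial genes was 50.7% and 44.4% in the controls and 35.7% to 37.4% in the GoF libraries. Scaling on totals without these genes moved the median log2 fold change of all genes by 0.15 and gave 2897 genes higher and 890 lower, against 2054 and 1835 as deposited. The controls differed from each other in some marker genes: Aldh1a2, itself a second heart field marker, was 2485 in replicate 2 and 170 in replicate 3, and the endoderm marker Shh was 2371 and 885. GoF replicate 1 sat almost midway between GoF replicates 2 and 3: over 9082 genes its log2 distance from their mean had an SD of 0.0857, whereas replicates 2 and 3 differed with an SD of 0.307. Whether GoF replicate 1 is independent of the other GoF libraries is not given in the labels. Each SD over the 3 GoF libraries, and each SE and p-value, counts it as independent and may be too small. For 8 of the 9 members this library lay between replicates 2 and 3. Without it, 1 member, Shmt2, was called higher and none lower by limma, where 4.06% and 3.32% of all genes were. At an unadjusted p under 0.05, 5 members were higher and 1 lower, and 13.1% and 12.6% of all genes.

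The summed normalized count of the 7 markers of primitive red cells was 6946 to 10956 in the controls and 13792 to 17610 in GoF, a sum led by Hba-x, with 2 of the 7 called higher. Alas2, another of the 7, was lower in GoF without overlap, at 311 and 424 against 280, 270 and 281, and with the GC trend removed it was called lower and none of the 7 higher by limma. The 5 neural crest markers summed to 4201 to 4726 and 5040 to 5538, with 1 called higher. The 6 cardiomyocyte markers measured summed to 281858 to 389690 and 182698 to 231786, a sum led by Ttn. Of the 6, 1 was called higher (Myl7) and 1 lower (Ttn). Tnnt2, Actc1 and Myl7 were higher in GoF without overlap, and Ttn and Myh7 lower. With the GC trend removed, Myh6 and Myh7 were called lower by limma and none of the 6 higher. The 6 endothelial markers summed to 5383 to 6095 and 6543 to 6641, with 1 called in each direction. The 7 neural tube markers measured summed to 5521 to 6798 and 5300 to 5410, also with 1 in each direction. For endoderm (7 markers, 3152 to 5130 against 3956 to 4200) and the liver bud (4 markers, 3101 to 4149 against 2826 to 3201) the ranges overlapped. The liver bud sum was led by Prox1, which was called lower (log2 fold change -0.38, limma adjusted p = 0.0288). Hhex, Afp and Ttr had log2 fold changes of 0.78, 1.17 and 3.38, none of them called. Of these, only Hhex was without overlap between the groups. In control replicates 2 and 3, Afp was at 420 and 8.74 and Ttr at 111 and 0. In bulk tissue, fewer cells of a type and less RNA per cell cannot be told apart, and the part of these shifts in the values of the 9 genes was not tested.

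Phgdh catalyses the committed step of serine synthesis. Its normalized count was 95.0 and 186 in control replicates 2 and 3 and 261, 261 and 289 in GoF replicates 1, 2 and 3. The GoF libraries lay above both controls and close together, at 271 ± 15.9 (SD, n = 3), while the controls stood far apart. The log2 fold change was 1.02 (SE 0.27), a 2.02-fold difference. Without control replicate 2 it was 0.54 and was no longer called, and without control replicate 3 it was 1.50. It was also not called when any GoF library was left out, at 0.97 to 1.04. The gene lies on chr3:98313170-98339990 (minus strand, GENCODE M21 on mm10). The annotation holds 19 other transcripts that match 355 to 1621 bases of the Phgdh transcript at 90.4% to 98.7% identity. None of these 19 had a row in the table, so reads that fit several of them may have been dropped or placed on Phgdh, and its value is uncertain to that extent.

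Psat1 (chr19:15904678-15947337, minus strand) makes phosphoserine from the product of Phgdh. Its values were 10019 and 10683 in the controls and 8247, 8671 and 7655 across the GoF libraries. Every GoF library lay below both controls, and the GoF mean was 8191 ± 510.1 (SD, n = 3). The log2 fold change was -0.34 (SE 0.08), so the GoF level was 0.791 of the control level. It was the only member with lower values in GoF and no overlap between the groups. Under quantile normalization the log2 fold change was -0.16, and under totals without mitochondrial genes it was -0.19, neither of them called. The call was also lost without GoF replicate 1 (-0.34) or GoF replicate 3 (-0.29). A copy in the annotation, Gm12611, shares 1056 bases with Psat1 at 91.0% identity and had no row of its own.

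Psph (chr5:129765558-129787449, minus strand) releases serine in the last step. It was counted at 165 and 104 in the controls and 167, 180 and 141 in GoF. The groups overlapped, since control replicate 2 was above GoF replicate 3. The log2 fold change was 0.30 (SE 0.25) and became -0.03 without control replicate 3. Psph shares up to 452 exon bases with Cct6a, a chaperonin subunit gene on the opposite strand with a mean normalized count of 22579. As the strand setting of the counting is not given in the sources used here, reads from that stretch cannot be told apart.

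The 3 serine synthesis genes therefore had values in 3 patterns: Phgdh higher in GoF, Psat1 lower and Psph overlapping. Divided by the merged length of all annotated exons of a gene, Psat1 was far above both others in every library. Its level in normalized counts per kb was 2355 and 2511 in the controls and 1939, 2038 and 1800 in GoF. Phgdh stood at 38.2 and 74.8 in the controls and 105, 105 and 116 in GoF per kb, and Psph at 23.9 to 41.5 over all 5 libraries. The ratio of Psat1 to Phgdh per kb, chosen after the values were seen, was 61.6 and 33.6 in the controls and 18.4, 19.4 and 15.5 in GoF. The size of this ratio depends on the lengths used, while its fold difference between libraries does not. That difference does depend on base composition and on the controls. The log2 change of the ratio was -1.36, and -0.80 with a trend on transcript GC content removed. It was -0.92 without control replicate 2 and -1.80 without control replicate 3.

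**Figure D1:**
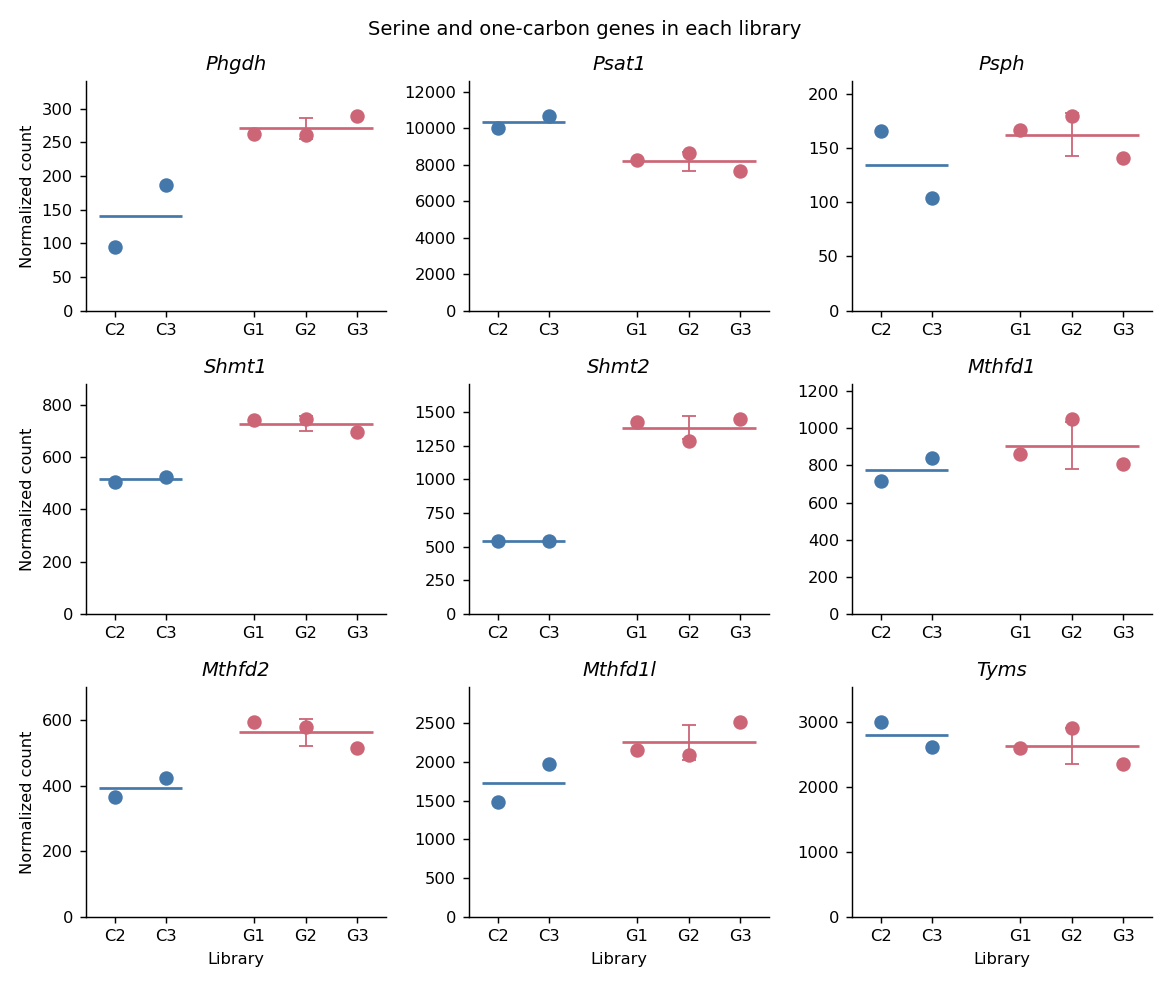
Normalized count (vertical axis, linear from 0, a scale per gene) of the 9 genes in control replicates 2 and 3 (C2, C3, blue) and GoF replicates 1, 2 and 3 (G1 to G3, red). Points are libraries, horizontal lines group means and error bars the SD of the 3 GoF libraries. The groups do not overlap for Phgdh, Shmt1, Shmt2, Mthfd2 and Mthfd1l, higher in GoF, and for Psat1, lower in GoF.

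Shmt2 (chr10:127517123-127522444, minus strand) moves the carbon unit from serine to folate in mitochondria and had the largest difference of the 9 genes. Its normalized count was 544 and 539 in the controls and 1424, 1284 and 1448 across the GoF libraries. The controls were almost equal and all 3 GoF libraries stood far above them. The GoF mean was 1386 ± 88.4 (SD, n = 3), 2.55-fold above the control mean, with a log2 fold change of 1.35 (SE 0.11). In the authors' deposited table Shmt2 had a log2 fold change of 1.36 and an adjusted p of 3.1e-21, rank 15 of all genes by p. Shmt2 was the one member still called when any single library was left out, with log2 fold changes of 1.32 to 1.41. It shares 32 exon bases with Ndufa4l2 on the opposite strand, which was not analysed here.

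Shmt1 (chr11:60788104-60811718, minus strand), the cytosolic enzyme, was counted at 507 and 523 in the controls and 743, 746 and 695 in GoF. These groups too did not overlap. The GoF mean was 728 ± 28.7 (SD, n = 3), 1.41-fold above the controls, with a log2 fold change of 0.50 (SE 0.11). It was no longer called without GoF replicate 1 (0.48) or without GoF replicate 2 (0.48), with little change in size. Shmt1 shares 184 exon bases with Smcr8 on the opposite strand, which had a mean normalized count of 1610, and reads from there cannot be told apart.

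Within each library, Shmt2 exceeded Shmt1 per kb of merged exons. The ratio of Shmt2 to Shmt1 was 1.34 and 1.29 in the controls and 2.39, 2.15 and 2.60 in GoF, with no overlap and a 1.81-fold difference of means. A ratio within a library needs no scaling between libraries. It does not remove base composition, in which the genes differ: 57.4% of the Shmt2 transcript and 49.2% of the Shmt1 transcript are G or C. The log2 change of the ratio was 0.85, and 0.34 after a trend with GC content was removed. An exact permutation test of 2 against 3 libraries cannot give a two-sided p below 0.2.

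Among the folate enzymes, Mthfd2 (chr6:83305691-83325908, minus strand), a mitochondrial dehydrogenase and cyclohydrolase abundant in embryonic and dividing cells, was counted at 365 and 424 in the controls and 594, 578 and 515 in GoF. All GoF libraries were above both controls. The GoF mean was 562 ± 41.5 (SD, n = 3), 1.43-fold higher, with a log2 fold change of 0.51 (SE 0.14). The call was lost without control replicate 2 (0.40), GoF replicate 1 (0.47) or GoF replicate 2 (0.49).

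Mthfd1l (chr10:3973118-4167081, plus strand), which releases formate in mitochondria, stood at 1489 and 1977 in the controls and 2158, 2086 and 2513 in GoF. The groups did not overlap, although control replicate 3 came close to GoF replicate 2. The log2 fold change of 0.39 (SE 0.14) was not called by limma as deposited. It was called by DESeq2 on the recovered reads (0.38), and by limma without control replicate 3 (0.59) or under totals without mitochondrial genes (0.54).

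Mthfd1 (chr12:76255298-76319803, plus strand), the trifunctional enzyme of the cytosol, was counted at 715 and 839 in the controls and 864, 1050 and 807 in GoF. GoF replicate 3 was below control replicate 3, so the groups overlapped. Its log2 fold change was 0.22 (SE 0.14), and -0.04 with the GC trend removed.

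Tyms (chr5:30058202-30073617, minus strand) was counted at 2991 and 2607 in the controls and 2595, 2906 and 2356 in GoF. The groups were interleaved. Its log2 fold change was -0.10 (SE 0.11), and 0.05 under totals without mitochondrial genes. The pseudogene Tyms-ps matches 677 bases of it at 95.6% identity and had no row.

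Counted by overlap rather than by the fit, 5 of the 9 genes had every GoF library above both controls, against 27.3% of all genes tested, and 1 had every GoF library below, against 27.6%. The members called higher included both serine hydroxymethyltransferases, 1 of the 3 serine synthesis enzymes and 1 of the 4 folate enzymes. Set against cytosolic Mthfd1 per kb, mitochondrial Mthfd2 was at a ratio of 0.649 and 0.645 in the controls and 0.875, 0.702 and 0.813 in GoF, 1.23-fold higher with no overlap. The ratio of Mthfd1l to Mthfd1 was 2.09 and 2.36 in the controls and 2.50, 1.99 and 3.12 in GoF, which overlapped.

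**Figure D2:**
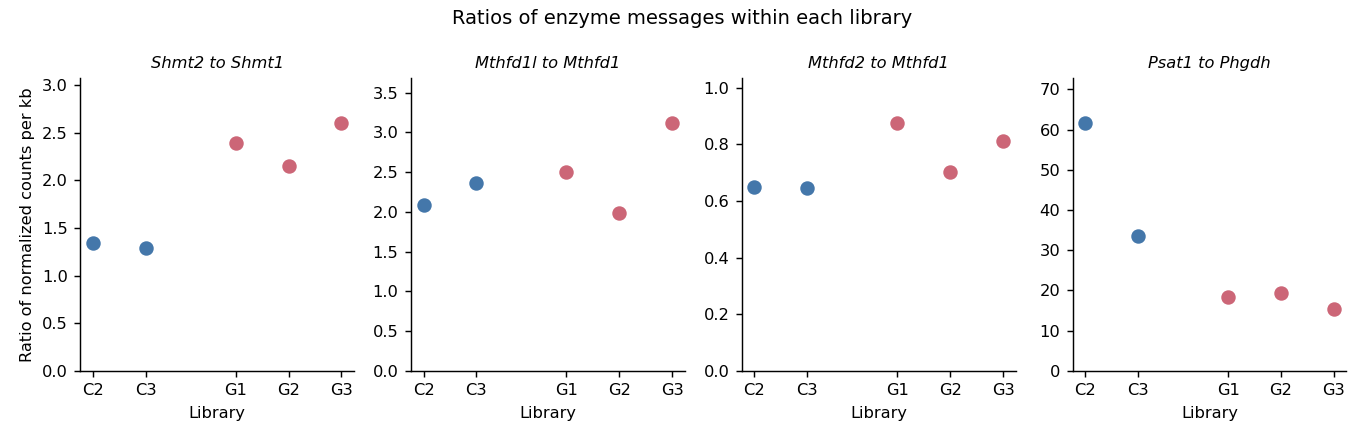
Ratio of normalized counts per kb of merged exons (vertical axis, linear from 0, a scale per panel) for 4 pairs of enzymes. Each point is a library, from control replicates 2 and 3 (C2, C3, blue) or GoF replicates 1, 2 and 3 (G1 to G3, red). The Shmt2 to Shmt1 ratio is 1.29 to 1.34 in controls and 2.15 to 2.60 in GoF, and the Mthfd1l to Mthfd1 ratio overlaps between the groups.

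By level per kb over the 5 libraries, Psat1 came first (mean 2129, rank 238 of the 16302 genes with an exon length). Mthfd1l (461, rank 2117), Tyms (442, rank 2210), Shmt2 (337, rank 2913) and Mthfd1 (193, rank 4747) followed in that order. Then came Shmt1 (166, rank 5331), Mthfd2 (142, rank 5879), Phgdh (87.9, rank 7814) and Psph (34.9, rank 11412). The median over all genes was 81.7 per kb. Psat1 lay above every other member in all 5 libraries. The neighbours below it overlapped: Mthfd1l ranged from 336 to 567, Tyms from 387 to 491 and Shmt2 from 173 to 466. Mthfd1 (161 to 236), Shmt1 (130 to 192) and Mthfd2 (105 to 170) also overlapped with the next in the order when all libraries were pooled, yet within each of the 5 libraries the order Mthfd1, Shmt1, Mthfd2, Phgdh held. At the lower end, Phgdh and Psph were both at 38.2 in control replicate 2 and apart in the other libraries. In the GoF libraries alone, Shmt2 stood at 446 ± 28.4 (SD, n = 3) and Tyms at 430 ± 45.3. In the controls Shmt2 was at 173 and 175 and Tyms at 428 and 491. The order of genes depends on the length used. Merged exons of Tyms make 6089 bases and its longest transcript 3884, so Shmt2 and Tyms in GoF cannot be ranked from these values. Levels from amplified cDNA also carry gene to gene differences in amplification.

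Fold changes in these libraries followed the GC content of the transcript over all genes. Of 10 equal bins of genes by GC content, the lowest had a median log2 fold change of -0.43 and the highest 0.65. Phgdh (57.2%) and Shmt2 lie in that highest bin, and the other members range from 46.7% (Tyms) to 52.6% (Mthfd1). The 965 genes within 1 percentage point of Shmt2 had a median log2 fold change of 0.57, which is 0.78 below Shmt2. The 987 such genes around Phgdh had a median of 0.57 too, 0.45 below Phgdh. Genes of like GC content to Shmt1 and Mthfd2 had medians of 0.04 and 0.05, so these members stood 0.46 and 0.46 above them. Psat1 stood 0.33 below its own like-GC median of -0.01. Mthfd1 and Tyms lay on theirs, at differences of -0.03 and 0.00, and Mthfd1l was 0.20 above.

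With the GC trend removed from every library, 2 members were called higher, Shmt1 and Shmt2 (3.11% of all genes), and Psat1 was called lower (3.33% of all genes). The log2 fold changes were then 0.80 for Shmt2 (SE 0.12, 1.74-fold), 0.46 for Shmt1 (SE 0.11) and -0.33 for Psat1 (SE 0.07). Phgdh was at 0.47 (SE 0.25) and Mthfd2 at 0.45 (SE 0.13), neither of them called. The removal also takes out any true change that follows GC content. With GoF replicate 1 left out as well, no member was called in either direction by limma (0.356% of all genes were called higher and 0.442% lower), and the log2 fold change of Shmt2 was 0.78. At an unadjusted p under 0.05, 2 members were higher and 1 lower, against 7.37% and 7.8% of all genes.

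**Figure D3:**
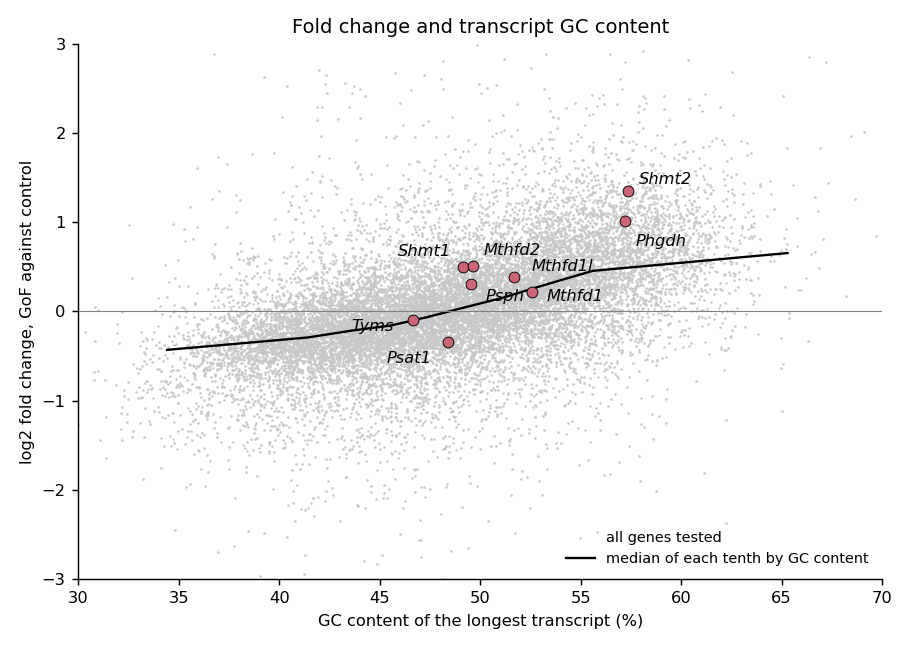
Log2 fold change of GoF against control (vertical axis) against the GC content of the longest transcript in percent (horizontal axis) for all genes tested (grey), with the 9 genes in red and a black line through the medians of 10 equal bins of genes by GC content. The line climbs from -0.43 to 0.65; Shmt2 at 1.35 is the member farthest above it and Psat1 at -0.34 lies below it. The vertical axis ends at -3 and 3 and the horizontal axis is cut at both ends too. Together these limits leave out 58 genes, none of them a member.

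**Figure D4:**
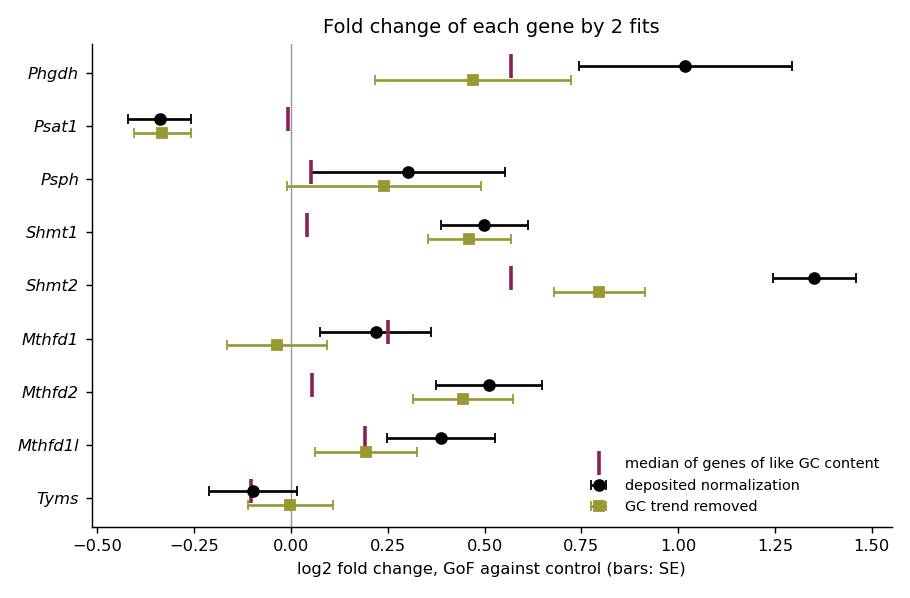
Log2 fold change of GoF against control with its SE (horizontal axis) for each of the 9 genes from the deposited normalization (black circles) and after removal of the GC trend (olive squares), with the median of genes within 1 percentage point of GC content as a purple tick. Between the fits Shmt2 moves from 1.35 to 0.80 and Phgdh from 1.02 to 0.47, while Psat1, Shmt1 and Mthfd2 move little.

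The pathway was followed beyond the 9 genes in 8 lists of 86 genes, of which 72 were tested and the other 14 were not analysed here. Of the 72, 17 were called higher and 3 lower by limma, where 12.2% and 10.9% of all genes were. Their median log2 fold change was 0.12. With the GC trend removed limma called 7 higher and none lower, against 3.11% and 3.33% of all genes. At an unadjusted p under 0.05 the 72 then gave 20 higher and 3 lower. The share of all genes at that threshold was not taken for this fit, so the 3.11% and 3.33% are no background for it. Without GoF replicate 1 limma again called 7 higher and none lower, against 4.06% and 3.32% of all genes. At an unadjusted p under 0.05 these were 16 and 5, against 13.1% and 12.6%. On the recovered reads edgeR called 19 higher and 3 lower, and DESeq2 20 and 4. Over all genes edgeR called 2089 higher and 1705 lower, and DESeq2 2212 and 2241. These shares are the background also for the counts of each list below. Counts at an unadjusted p with every library kept have no such share, and nothing is read from them.

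Among 13 other folate enzymes and carriers, 1 was higher and 3 were lower, with a median log2 fold change of -0.19. Mthfd2l, a mitochondrial relative of Mthfd2, was at 1209 and 1037 in the controls against 807, 850 and 790 in GoF (log2 fold change -0.46, limma adjusted p = 0.0257). As deposited, the direction of Mthfd2l was thus opposite to that of Mthfd2. Mthfd2l, at 40.1% GC, lies in the lowest bin by GC content, whose median log2 fold change was -0.43. With the GC trend removed Mthfd2l was at -0.10 (limma adjusted p = 0.561). Mthfs, which returns a stored folate to use, was at 77.4 and 121 against 49.2, 43.7 and 52.6 (log2 fold change -0.99, limma adjusted p = 0.0463). None of the 13 was called by limma with the GC trend removed (1 lower at an unadjusted p under 0.05) or without GoF replicate 1 (1 higher and 4 lower).

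None of the 4 glycine cleavage genes, which break glycine down to a folate-bound carbon in mitochondria, was called by limma, at a median log2 fold change of 0.18. At an unadjusted p under 0.05, 2 were higher, edgeR called 2 and DESeq2 1. Dld, a subunit shared with other mitochondrial complexes, was at 5889 and 5496 in the controls and 5049, 5592 and 4882 in GoF, and the groups overlapped. Gcsh, the carrier protein of the system, was at 1033 and 1007 against 1318, 1480 and 1167, without overlap and with a limma adjusted p of 0.0607. Of 8 genes of the methionine cycle and transsulfuration, 1 was called higher and none lower: Ahcyl1, a relative of the enzyme that clears S-adenosylhomocysteine, at 5314 and 4733 against 6342, 6554 and 6138 (log2 fold change 0.34, limma adjusted p = 0.0254). Of 11 genes for serine use and transport, 1 was called higher and none lower, the neutral amino acid transporter Slc1a4, at 274 and 281 against 399, 391 and 365 (log2 fold change 0.47, limma adjusted p = 0.0441). With the GC trend removed Slc1a4 was not called and 2 others were, Serinc3 and Sfxn1, both named after their values were seen. Sfxn1, which carries serine into mitochondria, was at 1837 and 1642 against 2122, 2285 and 1979, with no overlap between the groups (limma adjusted p = 0.0721 as deposited and 0.028 with the GC trend removed).

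Purine and thymidylate synthesis spend one-carbon units. Of 6 purine synthesis genes 1 was called higher and none lower: Atic, which inserts the last folate-borne carbon, at 2401 and 1295 in the controls and 3103, 3399 and 2917 in GoF, at a log2 fold change of 0.83 (limma adjusted p = 0.0337). Its controls differed from each other by more than control replicate 2 differed from any GoF library. Of 10 genes of pyrimidine and thymidine nucleotides 2 were called higher and none lower. These were Cad, which starts pyrimidine synthesis, at 1896 and 2015 against 3087, 3540 and 2621 (log2 fold change 0.65, limma adjusted p = 0.0132), and the thymidine salvage enzyme Tk1, at 368 and 414 against 593, 633 and 515 (log2 fold change 0.56, limma adjusted p = 0.0274). No gene of these lists was called by limma with the GC trend removed, with 2 of each list higher at an unadjusted p under 0.05.

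Atf4 drives Phgdh, Psat1, Psph, Shmt2 and Mthfd2 together in stressed mammalian cells. Atf4 itself was counted at 769 and 846 in the controls and 896, 980 and 930 in GoF, at a log2 fold change of 0.21 (limma adjusted p = 0.183). With the GC trend removed the log2 fold change of Atf4 was -0.24 (limma adjusted p = 0.167). Of 14 genes of the Atf4 response, Atf4 included, 5 were called higher and none lower, with a median log2 fold change of 0.45. Slc3a2 and Slc7a5, the chains of an amino acid transporter, had log2 fold changes of 0.80 (limma adjusted p = 0.00654) and 0.60 (limma adjusted p = 0.00857). Sesn2, a stress sensor, was at 70.3 and 109 against 206, 167 and 180 (log2 fold change 1.06, limma adjusted p = 0.021). Eif4ebp1, an inhibitor of translation, was at 239 and 246 against 382, 360 and 519 (log2 fold change 0.77, limma adjusted p = 0.0243). The fifth was Stc2, and it differed widely within GoF, at 968, 468 and 1535. Asns, the asparagine synthetase often read as an Atf4 target, was at 1054 and 1023 in the controls and 954, 869 and 1022 in GoF, all below both controls and replicate 3 only just. With the GC trend removed 1 of the 14, Eif4ebp1, was called higher, and without GoF replicate 1 also 1. Atf4, Stc2 and Asns are named here after their values were seen.

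Lower glycolysis supplies and competes for phosphoglycerate, and all 6 of its genes tested were called higher, with a median log2 fold change of 0.95. Gapdh was at 11237 and 11589 in the controls and 30055, 27897 and 31762 in GoF, at a log2 fold change of 1.39 (limma adjusted p = 0.00044). Ldha, which makes lactate, was at 20073 and 17668 against 43271, 42307 and 45035 (log2 fold change 1.21, limma adjusted p = 0.000642). In both genes all GoF libraries stood far above both controls. Pkm and Eno1 had log2 fold changes of 1.06 (limma adjusted p = 0.00389) and 0.76 (limma adjusted p = 0.00585). With the GC trend removed 3 of the 6, Gapdh, Ldha and Pkm, were called higher, and without GoF replicate 1, 5 of the 6.

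**Figure D5:**
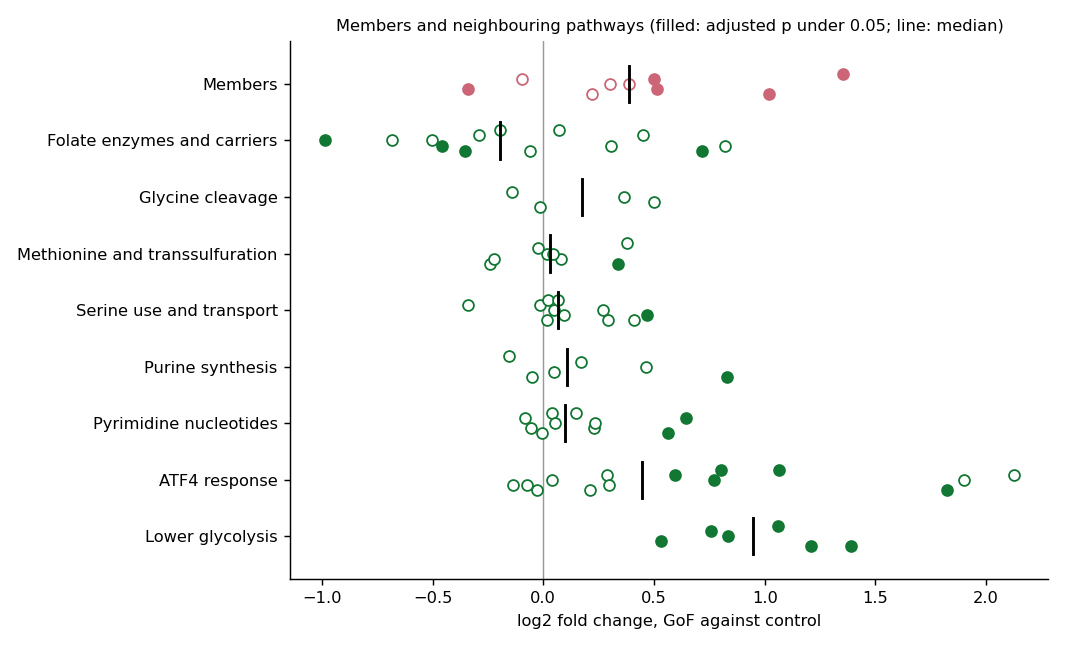
Log2 fold change of GoF against control (horizontal axis) of the 9 genes (red) and of the genes tested in 8 neighbouring lists (green), each circle a gene, filled where the limma adjusted p is under 0.05, with the list median as a black line. The medians run from -0.19 for other folate enzymes and carriers to 0.95 for lower glycolysis, and the median of the 9 genes is 0.39.

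The median profile of the 9 genes, each centred on its own mean log2 value, was -0.32 and -0.13 in the controls and 0.17, 0.25 and 0.08 in GoF replicates 1, 2 and 3. Mthfd2 and Shmt1 were the members nearest to it and Shmt2 and Phgdh the farthest, by Euclidean distance over the 5 libraries. Of 8359 other genes with a mean of at least 200, the nearest were Vac14 (distance 0.046), Fcf1 (0.047), Dnm2 (0.050), Ska2 (0.051) and Abl1 (0.052). Vac14 was counted at 1153 and 1313 in the controls and 1580, 1659 and 1485 in GoF, a log2 fold change of 0.35.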

How the data were processed

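RNA of the second heart field region was measured by RNA sequencing. Per the labels' protocols, 2 ng of total RNA per sample was primed with random and poly-T primers and the cDNA amplified isothermally. The genome build was mm10, and DESeq2, HTSeq, STAR 2.5.2 and bcl2fastq 2.17.1.14 were among the tools, per the submitters' processing notes. For the annotation, strand setting and filters, the answer is not given in the sources used here. The authors' deposited table holds 16832 genes with a normalized signal per library, and the authors' log2 fold change, test score, p-value and adjusted p-value, of which some were copied and are named as theirs. Every deposited signal was a whole multiple of 1 step per library (100% of values within 0.001 of a whole number), so it is a read count divided by 1 factor and is called normalized count here.

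The members and gene lists were chosen with earlier results of these data known. Named genes are all members, the called genes of each list (at most 4, by adjusted p, or else its 2 most abundant), and the 5 most alike in profile. A few genes that the rule names are not reported here. Genes of mean 10 or more entered limma 3.58.1 (R 4.3.3) as log2(normalized count + 1), using lmFit and a robust, trended eBayes and no covariate, with Benjamini-Hochberg adjustment over 16794 genes and a threshold of 0.05. A fold change on this scale understates the change of low genes. Recovered reads were also tested with edgeR 4.0.16 (quasi-likelihood; 2089 genes higher, 1705 lower) and DESeq2 1.42.0 (2212 and 2241). The fit was tested on simulated independent libraries without a GC trend, and that test does not cover a trend or dependent libraries. GC content is that of the longest GENCODE M21 transcript on GRCm38, which is mm10, with 16302 genes (96.9%) found by symbol. Values per kb use the length of all exons of a gene in GENCODE M21, merged where they overlap, not that of 1 transcript. GC removal subtracted, per library, a lowess fit (span 0.3) of gene deviations on GC content. Copies were transcripts matching at least 15% of a member's transcript at 90% identity or more. Promoters are RefSeq windows, and all 9 members matched by symbol. Depth limits low counts such as those of Psph, and no counting interval is given, because amplified reads lack molecular identifiers and are not separate molecules.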

Additional observations from a re-analysis of the deposited data

How the results depend on the processing

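The limma count of members called higher was 4 and ranged from 1 to 5 when 1 library was left out. It was 2 with the GC trend removed, 2 with a replicate block, 0 with the replicate block and GC removal together, and 0 with GC removal and GoF replicate 1 left out. Members called lower numbered 1, and 0 to 1 with a library left out. That count was 0 under quantile normalization, under totals without mitochondrial genes, under the replicate block with or without GC removal, and with GC removal and GoF replicate 1 left out. Other pathway genes called higher numbered 17, and 7 to 18 with a library left out. They numbered 7 with GC removal, 2 with the block and GC removal, and 2 with GC removal and GoF replicate 1 left out. Those called lower numbered 3, and 0 to 5 with a library left out. They numbered 0 under totals without mitochondrial genes, GC removal, the replicate block, block and GC removal together, and GC removal with GoF replicate 1 left out. Fewer libraries and the block leave fewer degrees of freedom; the cause of the other losses was not tested.

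Signs changed for members that were not called. Psph was -0.032 at its lowest and 0.64 at its highest (log2 fold change) with a library left out. Mthfd1 was -0.036 with GC removal, -0.0040 with block and GC removal, and -0.0017 with GC removal and GoF replicate 1 left out. Tyms was 0.051 under totals without mitochondrial genes, 0.0027 with block and GC removal, 0.0042 with GC removal and GoF replicate 1 left out, and -0.20 to 0.0015 with a library left out. The log2 change of the Shmt2 to Shmt1 ratio was 0.34 with GC removal, an alternative chosen after seeing the data. Log2 fold changes of Shmt2 ran from 0.78 to 1.50 over the 18 alternatives, and 16 of the 18 kept its call.

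Over all genes, 2054 were called higher and 1835 lower. These counts became 506 and 542 with GC removal, 765 and 606 with the replicate block, 73 and 90 with both, and 58 and 72 with GC removal and GoF replicate 1 left out. They were 682 and 559 without GoF replicate 1, and 929 and 808 without GoF replicate 2. The difference of control replicates 2 and 3 did not follow that of GoF replicates 2 and 3 (r = 0.0049 across 16794 genes, which are not independent replicates). This single comparison does not cover replicate 1. Whether same-numbered libraries were handled together was not tested.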
